A study of Caenorhabditis elegans with 10 samples.

Results

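The cytochrome P450 genes of Caenorhabditis elegans were followed across 5 strains of whole animals, as every gene whose symbol starts with cyp- followed by a number and a letter. The rule took 74 of the 46904 genes in the files, all of them protein coding, in 15 families and 25 subfamilies (the number gives the family, the number with its letter the subfamily). The strains carry changes in unc-104, the kinesin-3 motor that hauls synaptic vesicle precursors along axons, and the series asked what the R9Q change and suppressors of it do to mRNA. The groups were unc-104(R9QT102I), unc-104(R9QG265R), unc-104(R9Q);unc-16, unc-104(R9Q) and WT, with 2 libraries each and no treatment. They are called the T102I, G265R, unc-16, R9Q and WT strains here, and the first 3 carry R9Q as well as the added change. The unc-16 allele, the stage or age of the animals and whether the libraries of a strain came from separate cultures are not given in the sources used here, so a p-value measures only the spread between these libraries, which may be technical.

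Cytochromes P450 are haem enzymes that insert an oxygen atom into a substrate, drawing electrons from a reductase (EMB-8 in the worm) or from cytochrome b5. Some turn over foreign chemicals, and others make or inactivate signals such as eicosanoids and steroid hormones. In C. elegans the intestine is their best known site. The cyp-13 and cyp-25 families are relatives of the vertebrate CYP3 enzymes, cyp-14, cyp-33, cyp-34 and cyp-35 of the CYP2 enzymes, and cyp-29, cyp-31, cyp-32, cyp-37 and cyp-42 of the CYP4 fatty acid hydroxylases. Many worm P450 genes stand in tandem arrays of close copies, so a read that fits several of them is not assigned to any.

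Counts assigned to genes came to between 6239272 and 7160785 per library, and the P450 genes together took between 0.150% and 0.328% of them. A count of 0 in a library allows up to 3 counts, or 0.386 to 0.503 CPM (the count scaled to the depth of its library), and such limits cover counting error only. The targeted gene unc-104 had 0 counts in all 10 libraries, so it does not check the labels. Transcripts of the unc-16 gene were at 6.12 and 1.47 CPM in animals of the unc-16 strain, at 0.786 and 3.69 CPM in T102I and at 0.958 and 0 CPM in G265R, against 4.68 and 5.14 CPM in R9Q and 3.94 and 6.51 CPM in WT. Of the unc-16 strain's libraries, replicate 1 lay between the WT libraries and replicate 2 below both. The levels were low and the allele is not given, so this gene does not check the label either. In 3 libraries (the first of T102I and the second of both G265R and unc-16) mitochondrial transcripts took 0.0194% to 0.0238% of counts, against 1.58% to 5.51% in the other 7. Results over those 7 alone are given beside the comparisons of suppressed strains. Those 7 leave each suppressed strain without a replicate, so calls over them rest on the spread within WT and R9Q only. Of 10 intestinal markers, elt-2 ranged from 92.7 to 183 CPM and ges-1 from 141 to 295 CPM over the 10 libraries, while act-5 and pho-1 were at 0 in all. The other tested markers varied more, with ifb-2 at 0.168 to 13.2 CPM, mtl-2 at 7.67 to 80.6 CPM and pept-1 at 494 to 10797 CPM.

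Of the 74 members, 61 had enough counts to be tested. The 7 members at 0 in every library (cyp-31A5, cyp-34A6, cyp-34A8, cyp-34A9, cyp-37A1, cyp-43A1 and cyp-44A1, the last a mitochondrial type) each had more than 1 transcript in the files. Reads shared by several transcripts were not assigned, so a 0 there says nothing on the gene's expression. The other 6 untested members, cyp-25A6, cyp-33C6, cyp-33E1, cyp-35A1, cyp-35B3 and cyp-35D1, had some counts but too few. Most members lay on chromosome V, with 41 genes, followed by II with 12, IV and X with 7 each, III with 6 and I with 1. In the ce11 build the longest arrays were a run of 10 genes at V 3936326 to 3972991 (cyp-35A5, cyp-35B1 to cyp-35B3 and cyp-34A5 to cyp-34A10) and a run of 8 at II 9779181 to 9807569 (cyp-13A1 to cyp-13A8), joining neighbours less than 20000 bases apart.

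The cyp-33C and cyp-13A subfamilies, with 11 genes each, supplied 23.9% and 20.2% of all P450 CPM over the 10 libraries, and the 5 cyp-25A genes 14.9%. The cyp-13A share was carried by unc-16, at 40.9% there, against 11.1% in T102I, 17.6% in G265R, 16.2% in R9Q and 13.7% in WT. In WT the cyp-25A share was 14.2%. Per length, and among members with 1 transcript in the files, the highest strain mean was that of cyp-25A2 in T102I (175 CPM per kilobase of exon) and in G265R (162), cyp-13A5 in unc-16 (307), cyp-32B1 in R9Q (96.8) and cyp-33C8 in WT (134). For cyp-13A5 the value was 55.8 in T102I, 95.5 in G265R, 86.1 in R9Q and 93.0 in WT. Summed over all members, P450 transcripts came to 2656 and 3135 CPM in the T102I strain, 2681 and 1669 CPM in G265R, and 3441 and 2104 CPM in unc-16, against 1908 and 1954 CPM in R9Q and 2662 and 2665 CPM in WT. The R9Q libraries were below both WT libraries and both T102I libraries. The G265R and unc-16 libraries lay far apart from each other, and in each of the 3 suppressed strains the library with almost no mitochondrial transcripts had the lower sum. In bulk RNA of whole animals, fewer cells of a type and less RNA per cell cannot be told apart.

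**Figure D1:**
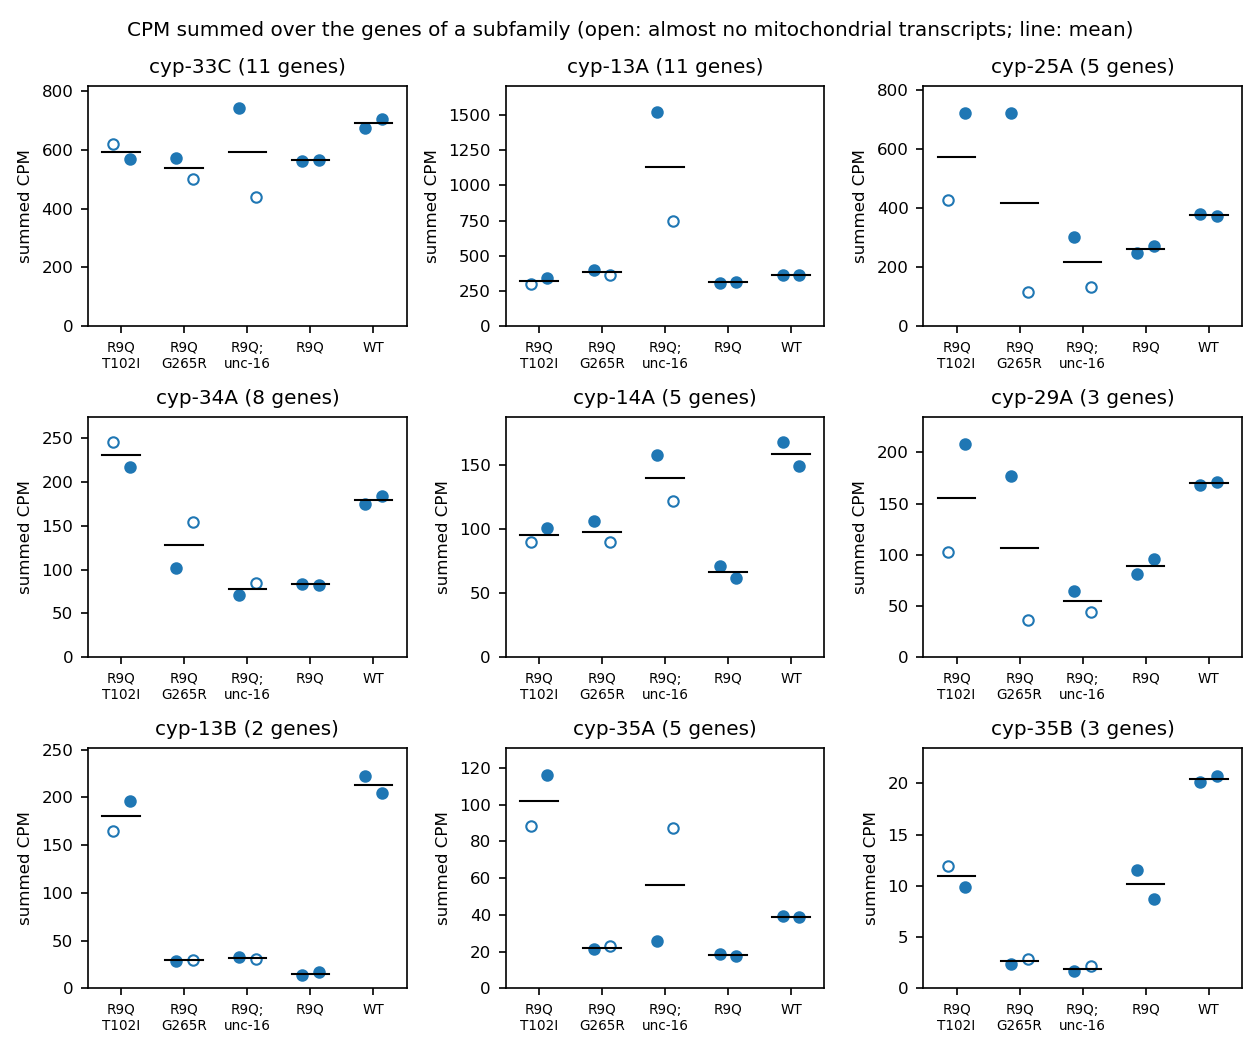
Summed CPM of 9 cyp subfamilies in each library, with suppressed strains at the left and WT at the right of each panel. Points are libraries, bars are strain means, and open markers are the 3 libraries with almost no mitochondrial transcripts. The cyp-13B sum is near WT in T102I alone among the 4 mutant strains, and the cyp-13A sum is highest in both unc-16 libraries.

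R9Q animals had lower levels of 2 P450 transcripts than WT, cyp-13B1 and cyp-34A10, and no member was called higher. Several cyp-14A, cyp-35 and cyp-34A genes also had lower values in R9Q, without passing the test. The test was edgeR's quasi-likelihood test over all tested genes with Benjamini-Hochberg adjustment, as for every adjusted p given here. The 2 lower members of 61 stand beside 0.212% of all tested genes called lower in R9Q, and 0.31% called in either direction. Both R9Q libraries were below both WT libraries for 34 members and above them for 13, that is beside 32.7% and 31.8% of all tested genes. The median member differed by -0.38 on the log2 scale, and the median of all tested genes by 0.00.

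For cyp-13B1, a cyp-13 gene at X 13406674 to 13409643, R9Q libraries had 13.2 and 16.3 CPM, against 220 and 201 CPM in WT. The ranges were far apart, and the log2 difference was -3.83 ± 0.22 (SE, adjusted p = 0.0018). Its call was lost when either R9Q library was left out (adjusted p = 0.138 without replicate 1 and 0.0915 without replicate 2), which left R9Q with 1 library. The other gene of the subfamily, cyp-13B2, was scarce, at 0.439 and 0.643 CPM in R9Q and 3.03 and 2.63 CPM in WT.

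Transcripts of cyp-34A10, at V 3970702 to 3972991 and the last gene of the long V array, had 7.47 and 9.26 CPM in R9Q, against 50.3 and 50.7 CPM in WT. The log2 difference was -2.59 ± 0.31 (SE, adjusted p = 0.0354). Leaving out any 1 library of WT, R9Q or T102I took the call away, with adjusted p between 0.103 and 0.492. All 5 tested cyp-34A genes had fitted values below 0, with a median of -0.61. Among them cyp-34A1, in a different V array, had 26.2 and 25.2 CPM in R9Q and 64.6 and 66.5 CPM in WT (log2 difference -1.35, adjusted p = 0.202).

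On the X chromosome, cyp-14A1 to cyp-14A4 stand in 1 array between 13265041 and 13284197, and cyp-14A5 lies elsewhere. All 5 had fitted values below 0 in R9Q, with a median of -1.96 and no call. That median was the value of cyp-14A4, which had 0 and 6 counts in R9Q and 14 and 7 counts in WT. For cyp-14A1 the fitted value was -0.63 (adjusted p = 0.725). For cyp-14A2, R9Q had 2.20 and 1.54 CPM, against 25.2 and 21.5 CPM in WT, a log2 difference of -3.63 ± 0.72 (SE, adjusted p = 0.128). The neighbouring cyp-14A3, named after its values were seen, had 0.293 and 1.16 CPM in R9Q and 13.2 and 11.6 CPM in WT. Transcripts of cyp-14A5 had 53.4 and 46.8 CPM in R9Q and 107 and 95 CPM in WT (log2 difference -1.01, adjusted p = 0.273). In each of these genes the R9Q and WT libraries did not overlap.

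Members of the cyp-35 family, known as xenobiotic-induced genes, also had lower fitted values in R9Q, without a call. All 4 tested cyp-35A genes had fitted values below 0 in R9Q, with a median of -1.03. Of these, cyp-35A4 and cyp-35A5 had at most 13 and 12 counts in a WT or R9Q library. In cyp-35B the fitted value was -1.47 for cyp-35B2 (adjusted p = 0.526). For cyp-35B1 it was -0.07, and the R9Q and WT libraries overlapped. For cyp-35A2, which also affects fat storage, R9Q had 15.1 and 14.5 CPM, against 32.9 and 31.6 CPM in WT (log2 difference -1.12, adjusted p = 0.785). Levels of cyp-35C1 were 6.0 and 7.33 CPM in R9Q and 26.4 and 25.1 CPM in WT, a log2 difference of -1.95 ± 0.72 (SE, adjusted p = 0.518). By contrast, cyp-33C as a subfamily had 6 fitted values above 0 and 4 below, with a median of 0.07.

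A few members had higher values in R9Q, none of them past the test. The largest fitted differences among members with a mean count of at least 50 were 0.67 for cyp-33C1 (23.9 and 23.1 CPM in R9Q, 14.6 and 15 CPM in WT; adjusted p = 0.910) and 0.63 for cyp-42A1 (24.7 and 22.8 CPM in R9Q, 16.7 and 13.9 CPM in WT; adjusted p = 0.709). Replicates lay more than 2-fold apart in 5 of the 61 members in T102I (8.20%), in 18 in the G265R strain (29.5%) and in 25 in the unc-16 strain (41.0%), against 3 in R9Q (4.92%) and 1 in WT (1.64%). Of all tested genes, 18.8% lay that far apart in T102I, 33.4% in the G265R pair and 35.8% in the unc-16 pair, against 2.63% in R9Q and 3.47% in WT. The fit over all 10 libraries shares 1 spread among the strains. Over the 7 libraries with mitochondrial transcripts, 35 members were called between R9Q and WT, 8 higher and 27 lower, among 32.5% of all genes tested in that fit. The cyp-13B1 difference there was -3.82 and that of cyp-34A10 -2.58.

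**Figure D2:**
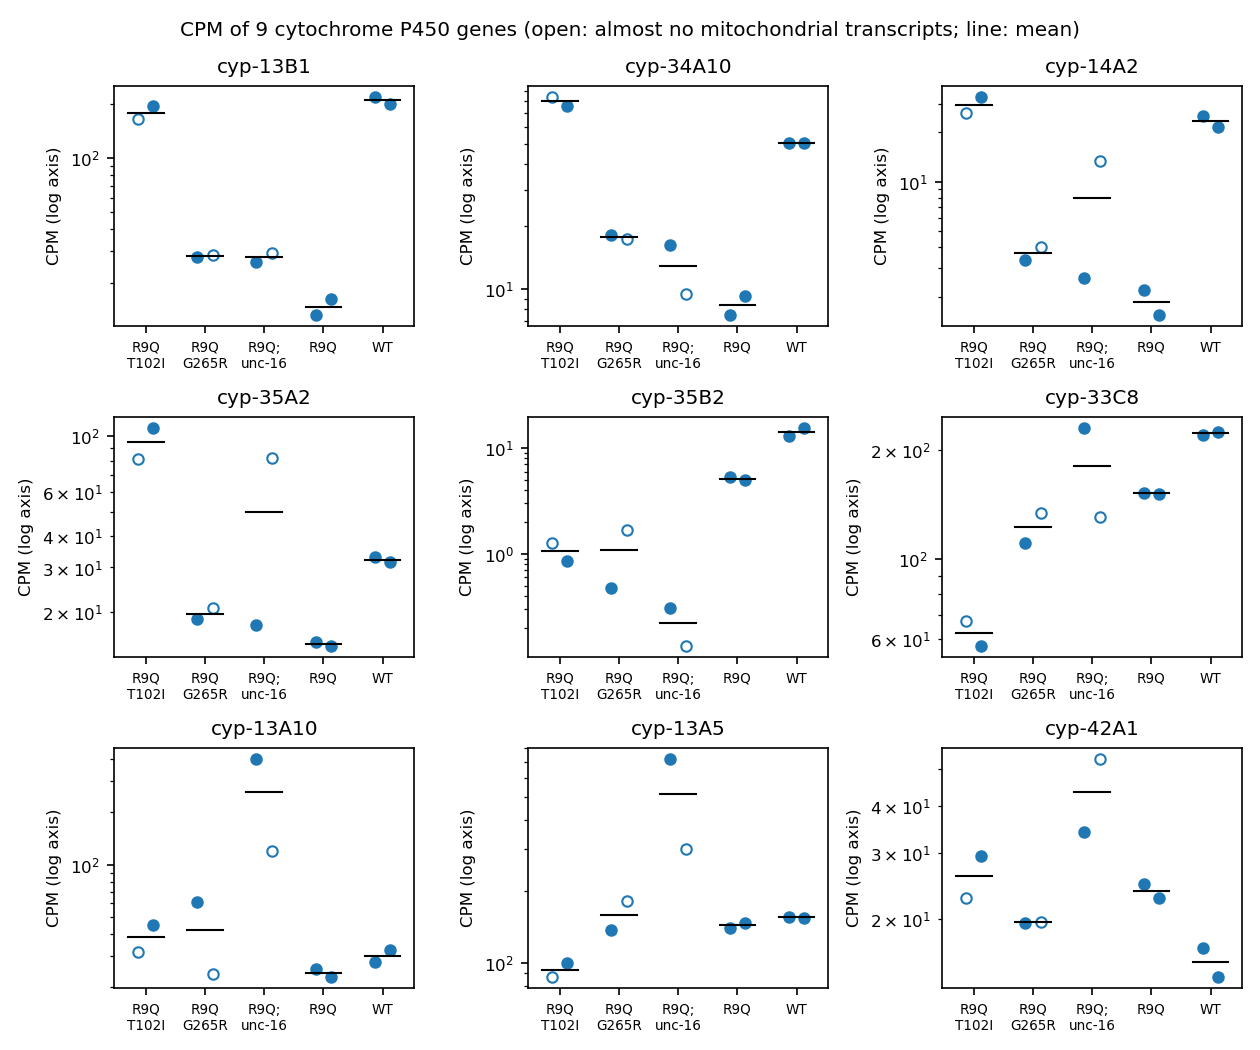
CPM of 9 P450 genes in each library on a log axis, suppressed strains at the left and WT at the right. Points are libraries, bars are strain means, and open markers are the 3 libraries with almost no mitochondrial transcripts. For cyp-13B1 the T102I libraries (165 and 194 CPM) stand near WT, while G265R and unc-16 stand near R9Q.

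In the T102I strain 2 members, cyp-13B1 and cyp-34A10, were higher than in R9Q, and no member was called lower. These comparisons share the R9Q libraries with the comparison above. Where calls over the 7 libraries are given, the suppressed strain has no replicate in that fit. The 2 calls of 61 stand beside 0.375% of all tested genes called higher, and 0.562% in either direction. Both T102I libraries were above both R9Q libraries for 32 members and below them for 13, against 28.0% and 26.8% of all tested genes. The median member differed by 0.45 on the log2 scale, against 0.00 for all tested genes. Over the 7 libraries, 38 members were called, 31 higher and 7 lower, among 36% of all genes tested.

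In T102I animals cyp-13B1 had 165 and 194 CPM, against 13.2 and 16.3 CPM in R9Q, a log2 difference of 3.60 ± 0.22 (SE, adjusted p = 0.00268). Relative to WT, at 220 and 201 CPM, the difference was -0.23 with a 95% interval of -0.68 to 0.22 and an adjusted p of 0.767. For cyp-34A10 the T102I libraries had 84.1 and 76.3 CPM, against 7.47 and 9.26 CPM in R9Q, a log2 difference of 3.26 ± 0.32 (SE, adjusted p = 0.00942). Both T102I libraries were also above both WT libraries (50.3 and 50.7 CPM), a difference of 0.67 with an interval of 0.00 to 1.33 and an adjusted p of 0.472. Without either R9Q library the cyp-13B1 call was lost (adjusted p = 0.138 and 0.124). The cyp-34A10 call was lost without any 1 library of WT, R9Q or T102I (adjusted p between 0.057 and 0.196).

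Other members of the cyp-14A and cyp-35A subfamilies had higher values in T102I as well. Transcripts of cyp-14A2 had 26.1 and 32.9 CPM in T102I, against 2.20 and 1.54 CPM in R9Q, a log2 difference of 3.97 ± 0.72 (SE, adjusted p = 0.0705). Its neighbour cyp-14A3 had 1.10 and 2.55 CPM in T102I and 0.293 and 1.16 CPM in R9Q, far under the 13.2 and 11.6 CPM of WT. For cyp-35A2, T102I had 81.4 and 108 CPM, against 15.1 and 14.5 CPM in R9Q, a difference of 2.68 ± 0.61 (SE, adjusted p = 0.139), and more than the 32.9 and 31.6 CPM of WT (difference 1.55, adjusted p = 0.423). The members of 1 array thus had unlike values within 1 strain.

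A second group had lower values in T102I than in both R9Q and WT. For cyp-33C8, at V 3800782 to 3803542, T102I had 67.6 and 57.3 CPM, against 153 and 151 CPM in R9Q and 221 and 225 CPM in WT. The differences were -1.29 (adjusted p = 0.123) and -1.84 (adjusted p = 0.0852). For cyp-35B2, T102I had 1.26 and 0.851 CPM, against 5.27 and 5.01 CPM in R9Q and 13 and 15.5 CPM in WT. For cyp-14A5, T102I had 39.9 and 37 CPM, against 107 and 95 CPM in WT (difference -1.39, adjusted p = 0.137). In these libraries cyp-34A10 and cyp-35A2 thus stood above WT levels in T102I while these 3 stood under R9Q levels.

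Between T102I and WT themselves, no member was called, beside 0.0978% of all tested genes, 0.0326% higher and 0.0652% lower. At an unadjusted p under 0.05 there were 13 members (21.3%, against 10.6% of all tested genes), and DESeq2's Wald test called 5, among 2.98% of all genes: cyp-14A5, cyp-33C8 and cyp-35B2 lower, cyp-32B1 and cyp-37B1 higher. For cyp-32B1, T102I had 270 and 232 CPM, against 119 and 119 CPM in WT (edgeR log2 difference 1.07, adjusted p = 0.198). For cyp-37B1, T102I had 81.3 and 92.9 CPM, against 34 and 30.4 CPM in WT (1.44, adjusted p = 0.234). Both T102I libraries were above both WT libraries for 22 members and below for 19, against 28.4% and 26.2% of all tested genes, and over the 7 libraries 29 members were called, among 36.6% of all genes tested.

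Sums of molting and hypodermal genes are given beside these values. The 12 molting genes, 9 of them tested and noah-1 and mlt-11 at 0 in all libraries, summed to 807 and 864 CPM in T102I, 264 and 712 CPM in G265R and 467 and 2486 CPM in unc-16, against 298 and 285 CPM in R9Q and 393 and 388 CPM in WT. Most of the WT and R9Q sums came from mlt-7, with 329 and 315 CPM in WT, 234 and 226 CPM in R9Q and 249 and 257 CPM in T102I. The median log2 difference from WT of the 9 tested molting genes was 5.53 in T102I, 4.31 in G265R, 6.46 in unc-16 and 0.03 in R9Q, with none called. The 6 hypodermal genes, of which 2 were tested, summed to 559 and 339 CPM in T102I, 3.19 and 521 CPM in G265R and 29.8 and 2509 CPM in unc-16, against 3.07 and 2.70 CPM in R9Q and 2.43 and 1.70 CPM in WT. The tested genes dpy-13 (447 and 268 CPM in T102I) and dpy-7 (111 and 70.6 CPM) supplied most of the high sums. Of the others, rol-6 and lin-26 were at 0 in all libraries, elt-3 was at most 0.629 CPM and col-19 at most 1.68 CPM. The T102I strain had high sums of both lists in both libraries, and was the only mutant strain with cyp-13B1 near WT. The part of both lists in the P450 values was not tested. For cyp-13B1, G265R replicate 2 and unc-16 replicate 2 had high sums of both lists and 28.8 and 29.4 CPM, close to the 28.0 and 26.3 CPM of their partner libraries. Other members differed more between the unc-16 libraries. There the log2 ratio of replicate 2 over replicate 1 (0.5 CPM added) was 0.16 for cyp-13B1, 2.18 for cyp-35A2, 2.16 for cyp-14A2 and -0.76 for cyp-34A10. In G265R these ratios were 0.04, 0.14, 0.23 and -0.06, in the same order.

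In the G265R strain no member was called against R9Q, and no tested gene at all was (0.0% called). At an unadjusted p under 0.05 there were 8 members (13.1%, against 8.71% of all tested genes), and DESeq2's Wald test called cyp-13B1 alone among them, beside 1.87% of all genes. For cyp-13B1, G265R had 28.0 and 28.8 CPM, against 13.2 and 16.3 CPM in R9Q, a log2 difference of 0.94 with a 95% interval of 0.48 to 1.40 (edgeR adjusted p = 0.269). For cyp-34A10, G265R had 18.2 and 17.4 CPM, against 7.47 and 9.26 CPM in R9Q, a difference of 1.09 with an interval of 0.40 to 1.78 (adjusted p = 0.366). Both genes had G265R libraries above R9Q and below WT. Among the largest fitted differences were 1.58 for cyp-35C1 (34 and 5.87 CPM in G265R, 6.0 and 7.33 CPM in R9Q; adjusted p = 0.591), where the libraries overlapped, and -1.06 for cyp-37B1 (22.5 and 23.8 CPM in G265R, 46.8 and 49.9 CPM in R9Q; adjusted p = 0.462), where they did not. Both G265R libraries were above both R9Q libraries for 15 members and below for 17, against 21.3% and 22.1% of all tested genes, and the median member differed by 0.19, against 0.01 for all tested genes. Without the 3 libraries short of mitochondrial transcripts, 24 members were called, 17 higher and 7 lower, among 33.9% of all genes tested, with cyp-13B1 at 0.89 and cyp-34A10 at 1.09.

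Against WT, cyp-13B1 was the 1 member called in G265R, at 28.0 and 28.8 CPM against 220 and 201 CPM in WT. Its log2 difference was -2.89 ± 0.21 (SE, adjusted p = 0.00407), beside 0.269% of all tested genes called lower and 0.465% in either direction. The call was lost without either WT library (adjusted p = 0.0731 and 0.0961). Lower values without a call were found for cyp-34A10 (difference -1.50, adjusted p = 0.105) and for cyp-14A2, with 3.35 and 4.02 CPM in G265R and 25.2 and 21.5 CPM in WT (-2.66, adjusted p = 0.176). For cyp-35B2, G265R had 0.479 and 1.68 CPM, against 13 and 15.5 CPM in WT (-3.71, adjusted p = 0.0649). Both G265R libraries were below both WT libraries for 29 members and above for 10, against 25.7% and 23.0% of all tested genes. Over the 7 libraries 34 members were called, 12 higher and 22 lower, among 40.9% of all genes tested.

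In the unc-16 strain, transcripts of 4 of the 11 tested cyp-13A genes and of cyp-42A1 were higher than in WT while cyp-13B1, cyp-34A10, cyp-34A1, cyp-33C9 and cyp-35B2 were lower, and this comparison had the most calls. It gave 10 members, 5 higher and 5 lower, beside 4.46% of all tested genes called, 2.27% higher and 2.19% lower. The higher ones were cyp-13A5, cyp-13A8, cyp-13A10, cyp-13A12 and cyp-42A1. Both unc-16 libraries were above both WT libraries for 12 members and below for 26, against 24.2% and 31.9% of all tested genes, and the median member differed by -0.30, against -0.07 for all tested genes. Over the 7 libraries 38 members were called, 16 higher and 22 lower, among 54.2% of all genes tested.

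All 4 called cyp-13A genes had their highest level in an unc-16 library. For cyp-13A5, at II 9798277 to 9800362, unc-16 had 720 and 301 CPM, against 140 and 146 CPM in R9Q and 156 and 154 CPM in WT. The difference from WT was 1.72 ± 0.38 (SE, adjusted p = 0.0486). Its array neighbour cyp-13A8, at II 9805600 to 9807569, had 40.6 and 17.8 CPM in unc-16, against 3.51 and 4.63 CPM in R9Q and 5.61 and 6.20 CPM in WT (difference from WT 2.30 ± 0.46, SE, adjusted p = 0.038). In both genes neither unc-16 library overlapped R9Q or WT, yet replicate 1 was more than 2-fold above replicate 2.

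The other 2 lie outside that array. For cyp-13A10, at II 9660839 to 9662884, unc-16 had 399 and 119 CPM, against 25.3 and 22.8 CPM in R9Q and 27.8 and 32.4 CPM in WT (difference from WT 3.11 ± 0.64, SE, adjusted p = 0.0401). For cyp-13A12, at III 13024547 to 13028017, unc-16 had 283 and 187 CPM, against 61.5 and 66.3 CPM in R9Q and 52.9 and 54.5 CPM in WT (2.13 ± 0.39, SE, adjusted p = 0.0317). This gene is known from the locomotion response to reoxygenation, where it acts through polyunsaturated fatty acid products. Not every gene of the subfamily had higher values: 7 of 11 tested cyp-13A genes had fitted differences from WT above 0 and 4 below, and for cyp-13A2 unc-16 had 16.2 and 37.3 CPM, against 66.7 and 61.8 CPM in WT.

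Against R9Q these 4 cyp-13A genes had large differences that did not pass the test. These were 3.43 for cyp-13A10 (adjusted p = 0.0644), 2.83 for cyp-13A8 (adjusted p = 0.05005), 1.88 for cyp-13A12 (adjusted p = 0.0747) and 1.83 for cyp-13A5 (adjusted p = 0.076). Calls of the 4 genes against WT rest on the shared spread: each was lost without any 1 library of WT, R9Q or T102I, and those of cyp-13A10 and cyp-13A8 also without unc-16 replicate 1 (adjusted p = 0.0573 and 0.0525). Without that replicate the cyp-13A10 difference was 2.03 and that of cyp-13A5 1.0. Over the 7 libraries, where unc-16 replicate 2 is left out, the differences from WT were 3.78 for cyp-13A10, 2.82 for cyp-13A8, 2.44 for cyp-13A12 and 2.26 for cyp-13A5. The size therefore moved with the library, and the direction did not.

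The called lower members in unc-16 came from 4 subfamilies. For cyp-13B1, unc-16 had 26.3 and 29.4 CPM, against 220 and 201 CPM in WT (difference -2.92 ± 0.21, SE, adjusted p = 0.00243). For cyp-34A10, unc-16 had 16.4 and 9.48 CPM, against 50.3 and 50.7 CPM in WT (-1.97 ± 0.30, SE, adjusted p = 0.0203), and for cyp-34A1 21.1 and 25.2 CPM, against 64.6 and 66.5 CPM (-1.50 ± 0.31, SE, adjusted p = 0.0407). For cyp-33C9, unc-16 had 59.4 and 43.7 CPM, against 134 and 134 CPM in WT (-1.38 ± 0.26, SE, adjusted p = 0.0321). The unc-16 and WT libraries did not overlap in these genes. The calls of cyp-33C9 and cyp-34A1 were lost without any 1 library of WT, R9Q or T102I, that of cyp-34A1 also without unc-16 replicate 1 (adjusted p = 0.0854), and that of cyp-34A10 without any 1 library of WT or R9Q.

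The 1 member called between unc-16 and R9Q was cyp-35B2, at V 3942160 to 3944523, beside 0.261% of all tested genes called lower, 0.408% higher and 0.668% in either direction. It had 2 and 1 counts in the unc-16 libraries (0.306 and 0.134 CPM), against 5.27 and 5.01 CPM in R9Q and 13 and 15.5 CPM in WT. From the summed counts, its level in unc-16 was 4.17% of that in R9Q, with an exact 95% interval of 0.841% to 12.7%. It was 1.5% of that in WT, with an interval of 0.307% to 4.46%. Both intervals cover counting error only, not the spread between libraries. The adjusted p was 0.0461 against R9Q and 0.00961 against WT. The call against R9Q was lost without any 1 library of WT, R9Q or T102I, and without unc-16 replicate 2 (adjusted p = 0.0536); the call against WT was lost without either WT library (adjusted p = 0.0971 and 0.114). Also in the V array, cyp-34A7 had 9.95 and 10.4 CPM in unc-16, against 18.0 and 18.5 CPM in R9Q (difference -0.84, adjusted p = 0.16). Next to cyp-35B2 in that array, cyp-35B1, a known target of the insulin-pathway factor DAF-16, had 1.38 and 2.0 CPM in unc-16, 6.15 and 3.09 CPM in R9Q and 5.31 and 4.34 CPM in WT.

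For cyp-13B1 the unc-16 libraries, at 26.3 and 29.4 CPM, were above the 13.2 and 16.3 CPM of R9Q, a difference of 0.92 with a 95% interval of 0.45 to 1.38 (adjusted p = 0.0817). Against R9Q, both unc-16 libraries were above both R9Q libraries for 20 members and below for 14, beside 22.8% and 29.7% of all tested genes. The median member differed by 0.21, and the median gene by -0.04. Over the 7 libraries 34 members were called between unc-16 and R9Q, 24 higher and 10 lower, among 50.5% of all genes tested.

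The cyp-33C genes of the V array from 2179514 to 2204400 and from 2236140 to 2252591 did not share a direction either. For cyp-33C1, T102I had 6.44 and 5.53 CPM, G265R 18.5 and 11.4 CPM and unc-16 6.73 and 2.67 CPM, against 23.9 and 23.1 CPM in R9Q and 14.6 and 15 CPM in WT. Its difference from R9Q was -1.97 in T102I (adjusted p = 0.15) and -2.32 in unc-16 (adjusted p = 0.0747), and in all 3 suppressed strains both libraries were below both R9Q libraries. For cyp-33C3, T102I had 194 and 172 CPM, G265R 125 and 110 CPM and unc-16 156 and 74.3 CPM, against 101 and 104.3 CPM in R9Q and 88.1 and 92.0 CPM in WT. Both T102I libraries were above those of R9Q and WT. The level of cyp-33C7 lay between 92.7 and 217 CPM over the 10 libraries, with the unc-16 pair at 217 and 123 CPM and the WT pair at 120 and 146 CPM.

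Within cyp-13A, other genes of the II array were not called in unc-16. For cyp-13A6, unc-16 had 30.0 and 41.3 CPM, against 16.1 and 16.6 CPM in R9Q and 18.3 and 16.6 CPM in WT (difference from WT 1.03 ± 0.29, SE, adjusted p = 0.0849). For cyp-13A4, named after its values were seen, unc-16 had 3.06 and 13.9 CPM, T102I 0.314 and 1.42 CPM and G265R 0.958 and 1.17 CPM, against 0.146 and 0.129 CPM in R9Q, where each library held 1 count, and 2.12 and 2.79 CPM in WT. Its replicate 2 was the higher unc-16 library, as for cyp-13A6, while replicate 1 was the higher for cyp-13A5, cyp-13A8, cyp-13A10 and cyp-13A12. The cyp-13A3 level lay between 3.06 and 7.61 CPM over the 10 libraries, lowest in unc-16.

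**Figure D3:**
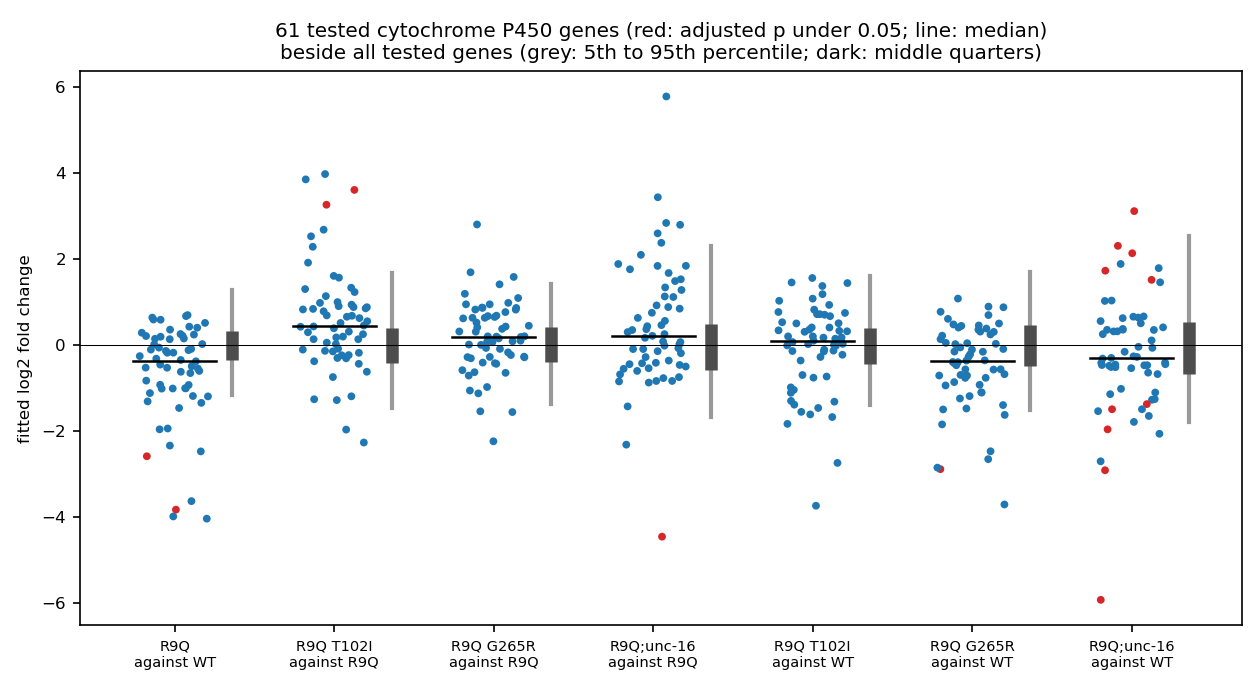
Fitted log2 differences of the 61 tested P450 genes in 7 comparisons, with the first-named strain over the second. Red points are called members, the black line is the median member, and the grey bar spans the 5th to 95th percentile of all tested genes, its dark section the interquartile range. Calls number 10 for unc-16 against WT and at most 2 in each other comparison.

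DESeq2's Wald test, fitted to the same 10 libraries, called more members in most of these comparisons, and more of all genes too. It called 5 members for R9Q against WT, beside 2.03% of all tested genes. Against R9Q it called 8 for T102I, beside 3.83%, and 12 for unc-16, beside 9.15%. Against WT it called 5 for G265R, beside 3.72%, and 15 for unc-16, beside 13.5%.

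The suppressed strains were set against each other directly in comparisons chosen after the data had been seen. For cyp-13B1, T102I (165 and 194 CPM) was higher than G265R (28.0 and 28.8 CPM) by 2.66 ± 0.21 on the log2 scale (SE, adjusted p = 0.0131), and higher than unc-16 (26.3 and 29.4 CPM) by 2.69 ± 0.21 (SE, adjusted p = 0.00296). For cyp-34A10 the difference of T102I from unc-16 was 2.63 ± 0.31 (SE, adjusted p = 0.0174) and that from G265R was 2.17 ± 0.30 (SE, adjusted p = 0.0505). For cyp-13A5, T102I had 86.6 and 99.1 CPM and unc-16 had 720 and 301 CPM, a difference of -2.46 ± 0.39 (SE, adjusted p = 0.0425). With the 7 libraries that hold mitochondrial transcripts, the difference of T102I from G265R was 2.78 for cyp-13B1 and 2.05 for cyp-34A10, and that from unc-16 was 2.81 for cyp-13B1, 2.15 for cyp-34A10 and -2.93 for cyp-13A5. All tested genes were called at 0.0978% between T102I and G265R, and at 0.783% between T102I and unc-16.

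Some members varied more between the libraries of 1 strain than between WT and R9Q. The 4 cyp-25A genes of the array at III 3832591 to 3852080 were each lower in the library with almost no mitochondrial transcripts than in its partner, in all 3 suppressed strains, by little for cyp-25A4 in T102I (24.5 and 24.7 CPM). For cyp-25A2, T102I had 197 and 352 CPM, G265R 464 and 44.4 CPM and unc-16 161 and 47.8 CPM, against 128 and 151 CPM in R9Q and 169 and 166 CPM in WT. For cyp-29A2, T102I had 89.6 and 198 CPM, G265R 165 and 28.7 CPM and unc-16 56.2 and 35.7 CPM, against 72.3 and 84.7 CPM in R9Q and 156 and 163 CPM in WT. The values of cyp-33E2, which takes part in eicosanoid formation and acts in the pharynx, were 59.6 and 111 CPM in T102I, 163 and 24.5 CPM in G265R and 65.0 and 38.9 CPM in unc-16, against 73.3 and 78.2 CPM in R9Q and 68.7 and 69.7 CPM in WT. The gap between the G265R libraries was the widest in each of these 3 genes.

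Over all tested members, 14 of 61 (23.0%) were below the partner in all 3 such libraries and 6 (9.84%) above it, against 27.2% and 24.7% of all tested genes. The 10 intestinal genes, 5 of them tested, summed to 1430 and 1474 CPM in T102I, 11139 and 1646 CPM in G265R and 5325 and 882 CPM in unc-16, against 3407 and 3365 CPM in R9Q and 1476 and 1526 CPM in WT. The peptide transporter gene pept-1 supplied most of that sum, with 10797 and 1363 CPM in G265R. Its part in the cyp-25A, cyp-29A and cyp-33E values was not tested. For cyp-25A2, cyp-29A2 and cyp-33E2 the 2 G265R libraries lay on either side of both R9Q and WT.

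**Figure D4:**
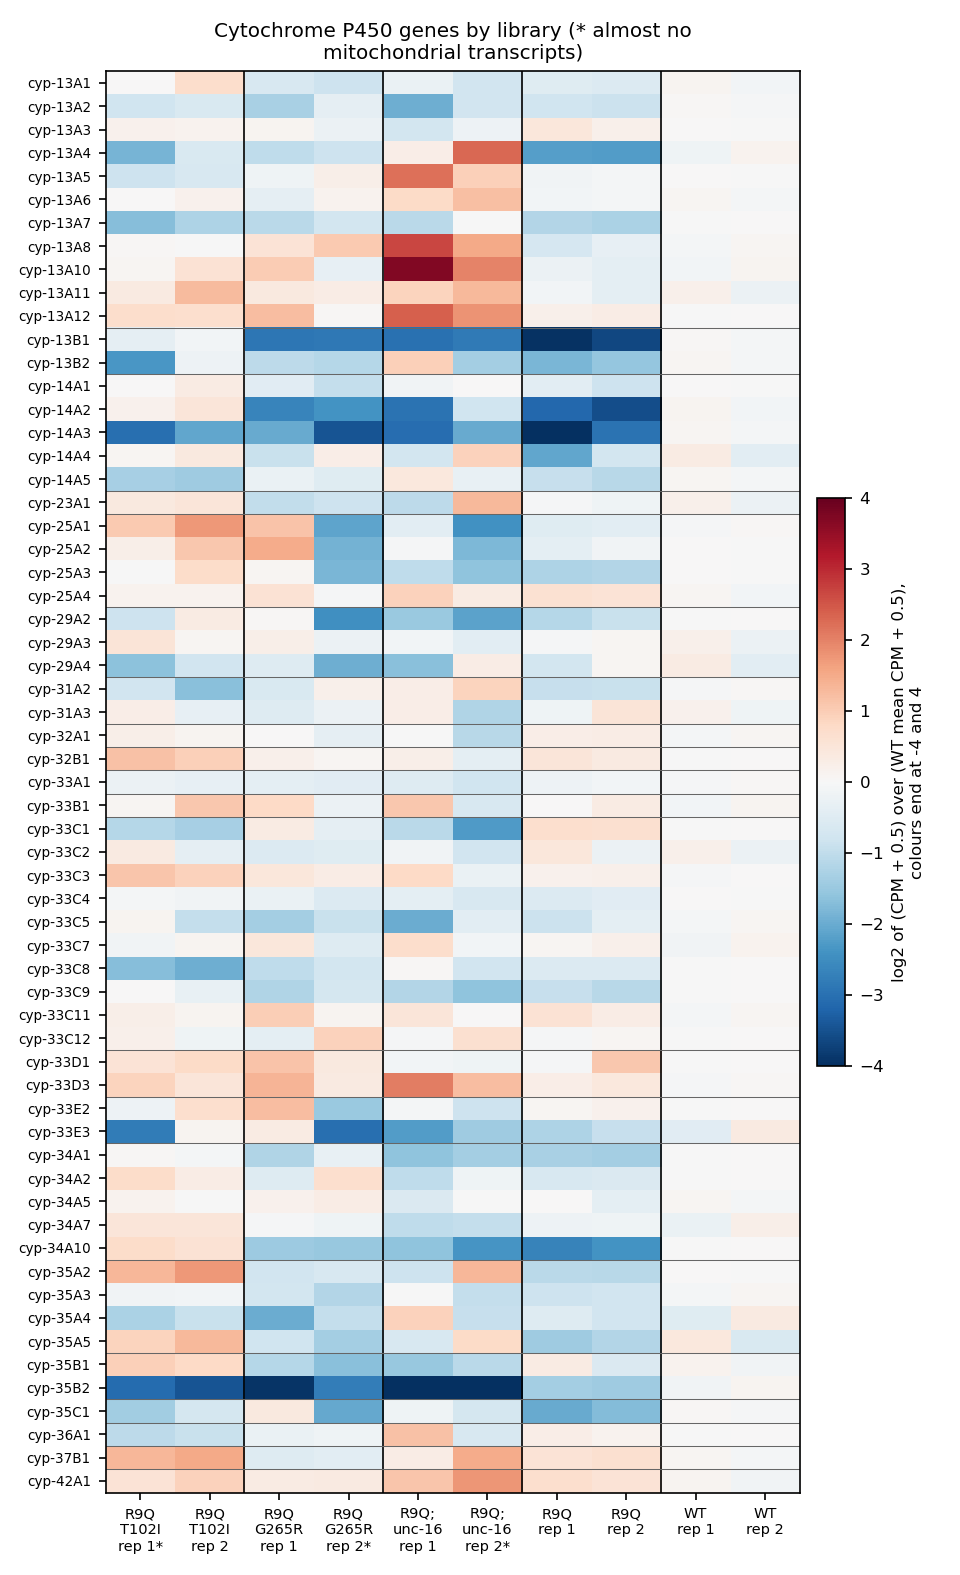
Level of each of the 61 tested P450 genes in each library as log2 of (CPM + 0.5) over (WT mean CPM + 0.5), with suppressed strains at the left and WT at the right. Colours end at -4 and 4, and an asterisk marks a library with almost no mitochondrial transcripts. The cyp-13B1 line is pale in T102I and dark in the other mutant strains, and several cyp-13A lines are high in the unc-16 columns.

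Members with known physiological roles gave no shared direction. The level of cyp-29A3, an eicosanoid-forming enzyme, lay between 6.28 and 12.4 CPM in all 10 libraries. For cyp-36A1, which acts in the hypoxia pathway that modifies egg laying, the libraries had 18.4 and 20.3 CPM in T102I, 31.6 and 34.4 CPM in G265R and 88.0 and 24.6 CPM in unc-16, against 46.3 and 42.4 CPM in R9Q and 38.1 and 38.7 CPM in WT (T102I against R9Q -1.20, adjusted p = 0.435). The gene cyp-23A1, alone in its subfamily, had 1.38 to 8.95 CPM over the 10 libraries, both ends of that range in unc-16. Levels of cyp-32A1 were 60.4 and 56.2 CPM in T102I, 52.1 and 40.6 CPM in G265R and 50.8 and 23.9 CPM in unc-16, against 62.5 and 63.3 CPM in R9Q and 48.7 and 54.8 CPM in WT. The near-identical pair cyp-31A2 and cyp-31A3, needed for the lipid barrier of the eggshell, had 1.28 to 9.88 CPM and 1.87 to 7.33 CPM over the 10 libraries, and reads between them may be split or lost. For cyp-42A1, called higher in unc-16 than in WT, unc-16 had 34 and 53.3 CPM, against 24.7 and 22.8 CPM in R9Q and 16.7 and 13.9 CPM in WT. Its log2 difference from WT was 1.51 ± 0.30 (SE, adjusted p = 0.0379), lost without any 1 library of WT, R9Q or T102I.

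Of 22 genes linked to P450 enzymes, namely electron carriers, the dafachronic acid pathway, epoxide hydrolases and transcription regulators, 11 could be tested and none was called in any of the 7 comparisons, by edgeR or by DESeq2. Among the 4 electron carriers only vem-1 was tested, at 0.168 to 2.54 CPM. The reductase gene emb-8, cytb-5.1, cytb-5.2 and daf-9 were at or near 0 in all libraries, so the result does not cover them. At an unadjusted p under 0.05 there were 1 for R9Q against WT, 2 for T102I, 1 for G265R and 1 for unc-16 against R9Q, and 0, 1 and 5 for T102I, G265R and unc-16 against WT. Of all tested genes, 7.67%, 11.1%, 8.71%, 19.1%, 10.6%, 12.6% and 23.2% met that limit in these 7 comparisons, in the same order. Among the partner genes ceeh-2, an epoxide hydrolase gene picked here after its values were seen, had 106 and 192 CPM in T102I, 117 and 42.4 CPM in G265R and 40.1 and 38.3 CPM in unc-16, against 68.1 and 63.3 CPM in R9Q and 97.2 and 93.3 CPM in WT. The Rieske oxygenase gene daf-36, chosen in the same way, had 52.3 and 54.9 CPM in T102I, 33.2 and 38.5 CPM in G265R and 18.4 and 36.1 CPM in unc-16, against 28.1 and 26.2 CPM in R9Q and 49.3 and 56.4 CPM in WT (R9Q against WT -0.96 ± 0.32, SE, adjusted p = 0.440). The T102I, G265R and WT libraries of daf-36 all lay above both R9Q libraries.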

How the data were processed

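Total RNA of whole worms was sequenced in 10 libraries (TRIzol extraction and the KAPA RNA HyperPrep kit, per the labels' protocols). The deposited files hold counts per transcript, not normalized, made by the authors with Trim Galore 0.4.4, STAR 2.5.4b and HTSeq 0.9.1 on ce11, per the submitters' processing notes. The strand setting and annotation release are not given in the sources used here. Between 57.7% and 61.8% of aligned reads were set aside as ambiguous, since they fell in more than 1 transcript, which leaves multi-transcript genes partly or wholly uncounted. Of 61451 transcripts, 56781 were matched to WBcel235 genes by identifier, 4581 by sequence name and 89 were unmatched (0.0486% of counts); 5 summary entries that name no gene were left out. Counts were summed per gene.

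All 10 libraries were fitted with edgeR 4.0.16 (R 4.3.3, limma 3.58.1): TMM scaling, filterByExpr with a minimum count of 10, 1 mean per strain, 5 residual degrees of freedom, the quasi-likelihood test, and Benjamini-Hochberg adjustment over the 12267 genes tested with a threshold of 0.05. CPM uses TMM-scaled totals. The scripts were tested on simulated data. Standard errors are the fitted difference over the square root of F. DESeq2 1.42.0, other scalings and filters, fewer libraries, a library-set term, a replicate block and leaving out each library were alternatives. The members and lists were chosen with earlier results of these data known. Members were named if called in any comparison, highest in their subfamily or known for a role. So were the 4 largest changes per direction of each comparison with a mean count of at least 50. Partner genes were named only if called, with exceptions stated. Outside these rules, other genes of a subfamily or array were given with their values known. These were cyp-13A2, cyp-13A3, cyp-13A4, cyp-13A6, cyp-13B2, cyp-14A1, cyp-14A3, cyp-14A4, cyp-33C3, cyp-33C7, cyp-35A4 and cyp-35A5. Comparisons among suppressed strains were chosen after seeing the data.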

Additional observations from a re-analysis of the deposited data

Results flagged for a closer look

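The T102I strain differed from another suppressed strain in 3 P450 genes. Each was tested in the same fit by edgeR, with Benjamini-Hochberg adjustment over all tested genes. No member was called between G265R and unc-16. These comparisons were chosen after the data had been seen. For cyp-13B1, T102I minus G265R was 2.66 on the log2 scale (adjusted p = 0.0131), with both T102I libraries above both G265R libraries. The call was lost without any 1 library of WT, R9Q or T102I (adjusted p between 0.0585 and 0.106) and when only the 4 libraries of the 2 strains were fitted (0.604). For the same gene, T102I minus unc-16 was 2.69 (adjusted p = 0.00296), a call lost only with the 4 libraries alone (0.253) among the alternatives run. For cyp-34A10, T102I minus unc-16 was 2.63 (adjusted p = 0.0174), and for cyp-13A5 it was -2.46 (adjusted p = 0.0425). Both of these calls were lost without any 1 library of WT, R9Q or T102I, with adjusted p of 0.0665 to 0.145 for cyp-34A10 and 0.133 to 0.325 for cyp-13A5, and with the 4 libraries alone (0.432 and 0.463). Over all alternatives run, the cyp-13B1 difference ranged between 2.54 and 2.78 for T102I minus G265R and between 2.54 and 2.81 for T102I minus unc-16.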

How the results depend on the processing

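Counts of called P450 genes moved with the processing. They are given for R9Q against WT, then T102I, G265R and unc-16 against R9Q, then T102I, G265R and unc-16 against WT. The counts given above are 2, 2, 0, 1, 0, 1 and 10. With DESeq2 size factors the unc-16 against R9Q count was 2, and with a filter of 5 CPM in 4 libraries unc-16 against R9Q and G265R against WT had 2 each. With no filter the counts were 8, 10, 0, 11, 6, 5 and 14 (1.28% to 6.66% of all genes). DESeq2's Wald test gave 5, 8, 1, 12, 5, 5 and 15, where all genes were called at 1.87% to 13.5%. Fitting only the 4 libraries compared gave 33, 13, 0, 0, 7, 0 and 0 (37.7%, 7.29% and 4.07% of all genes where any was called), and the 7 libraries with mitochondrial transcripts gave 35, 38, 24, 34, 29, 34 and 38 (32.5% to 54.2%). A term for the library set gave 4, 7, 0, 12, 5, 4 and 19 (1.03% to 20.5%). With a replicate block the counts were 1, 2, 0, 0, 0, 1 and 4 (at most 1.78%). Same-numbered libraries had deviation correlations between -0.64 and 0.61. The largest were between suppressed strains, whose libraries with almost no mitochondrial transcripts differ in replicate number. The correlations therefore cannot decide whether the numbers pair samples. Leaving out 1 library gave 0 to 3, 0 to 8, 0 to 0, 0 to 10, 0 to 7, 0 to 4 and 1 to 15. Of 532 alternative values of 28 single-gene differences, 390 kept direction and side of the threshold, 120 lost a call, 22 gained one and 0 reversed. The 28 were differences of called members or of cyp-13B1 and cyp-34A10, so they do not cover the direction of other members. What moved the calls was not tested. With 2 libraries per strain, a fit without 1 of them assumes that the lone library varies like the others. The median biological coefficient of variation was 0.363 over 10 libraries and 0.087 over 7, and members at a few counts allow no fold.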
